A study of Mus musculus with 45 samples.

Results

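The 35 genes described here are the interferon gamma response genes of a fixed list: 14 interferon-inducible GTPases, 10 genes of MHC class I antigen presentation, 7 genes of MHC class II antigen presentation, and 4 regulators and targets (Irf1, Irf8, Socs1 and Cd274). They were chosen by name, with earlier results of these data known. All 35 were found among the 23420 genes of the count table, and all 35 were among the 14668 genes that passed the low-count filter. The study sequenced RNA from T cells of mice that carried B16 tumours, a melanoma line, and its title names interferon gamma as a driver of regulatory T cell (Treg) fragility. It holds 45 libraries in 9 groups of 5.

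Tregs came from the tumour and from non-draining lymph nodes of wild-type and Nrp1-mutant mice. Wild-type mice gave the WT groups. Heterozygous mice gave a group labelled Het_WT, called HetWT here, and a group labelled Het_Nrp1-, called HetNrp1def here, which stands for Nrp1-deficient cells. A further pair of groups, called N here after its titles, carries the genotype entry Het_Nrp1- as well. The design text names Nrp1-deficient homozygous mice, but the labels do not say whether the N groups are those mice, so N was kept apart. The ninth group, labelled Teffector, holds effector T cells from tumours of wild-type mice. All these groups bore B16 tumours, and no untreated or tumour-free animal is among them. The labels do not give the promoter that drives the Nrp1 deletion, the age of the mice, or whether a sample is 1 mouse or a pool. The spread behind each p-value is therefore that between libraries, and it may be technical.

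Interferon gamma binds a receptor built of Ifngr1 and Ifngr2, which signals through Jak kinases. Its target promoters carry gamma-activated sites (GAS), and factors of the Irf family bind interferon-stimulated response elements (ISRE). The guanylate-binding proteins (Gbp genes) and the immunity-related GTPases (Igtp, Irgm1, Irgm2, Iigp1, Tgtp1, Tgtp2) are among the strongest targets of this pathway in mouse cells and act against vesicle-dwelling microbes. MHC class I molecules show cell-internal peptides to CD8 T cells, with peptides cut by the immunoproteasome (Psmb8, Psmb9, Psmb10) and pumped by Tap1 and Tap2. MHC class II molecules present peptides to CD4 T cells. In mice, resting T cells make little of them, and B cells, dendritic cells and macrophages make much.

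Promoters of GTPase genes and Irf8 that were higher in the tumour, or hold the spacing described below, are shown beside that of a class II gene with neither interferon motif. RefSeq promoter entries (GRCm38.p6, 250 bases before to 50 after the start) matched 25 of the 35 genes. GAS (TTCNNNGAA) and ISRE (GAAA, any 2 bases, GAAA) matches were searched on both strands, and matches can overlap. An ISRE match lay in 9 of the 9 GTPase genes with an entry, in 1 of 8 class I genes (B2m), in 0 of 4 class II genes and in 1 of 4 regulators (Socs1). Of all 32851 promoter entries, 3.44% held one. A GAS match lay in 6 of 9 GTPase genes, in 1 of 8 class I genes (Psmb8), in 0 of 4 class II genes and in 2 of 4 regulators (Irf1 and Irf8), against 8.30% of all entries. A CCAAT box (CCAAT, both strands) lay in 2 of 9 GTPase genes, 6 of 8 class I genes, 4 of 4 class II genes and 3 of 4 regulators, against 37.4% of all entries. The 5 genes with more than 1 entry were counted when any entry held a match, whereas the shares of all entries count each entry singly. H2-DMa holds a CCAAT box in 1 of its 2 entries. The 250 bases before the start are printed below, 5′ to 3′ on the strand of the gene. Capitals mark GAS and ISRE matches in the first 5 and the CCAAT box, on either strand, in H2-Aa.
Igtp, chr11:58199306-58199555, plus strand: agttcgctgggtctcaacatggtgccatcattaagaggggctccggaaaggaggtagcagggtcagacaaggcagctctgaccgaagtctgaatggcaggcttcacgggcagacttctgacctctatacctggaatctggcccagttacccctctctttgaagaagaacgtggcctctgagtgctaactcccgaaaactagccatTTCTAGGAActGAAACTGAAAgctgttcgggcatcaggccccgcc
Tgtp2, chr11:49064213-49064462, minus strand: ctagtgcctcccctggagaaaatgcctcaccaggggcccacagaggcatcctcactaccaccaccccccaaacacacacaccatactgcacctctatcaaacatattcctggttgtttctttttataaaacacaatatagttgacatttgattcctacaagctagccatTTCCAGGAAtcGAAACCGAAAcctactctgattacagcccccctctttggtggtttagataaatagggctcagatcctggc
Irgm1, chr11:48871421-48871670, minus strand: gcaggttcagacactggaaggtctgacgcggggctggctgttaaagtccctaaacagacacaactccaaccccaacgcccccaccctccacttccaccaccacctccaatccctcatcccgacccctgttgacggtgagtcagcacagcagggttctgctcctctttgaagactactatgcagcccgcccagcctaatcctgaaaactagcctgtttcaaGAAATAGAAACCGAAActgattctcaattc
Gbp7, chr3:142530086-142530335, plus strand: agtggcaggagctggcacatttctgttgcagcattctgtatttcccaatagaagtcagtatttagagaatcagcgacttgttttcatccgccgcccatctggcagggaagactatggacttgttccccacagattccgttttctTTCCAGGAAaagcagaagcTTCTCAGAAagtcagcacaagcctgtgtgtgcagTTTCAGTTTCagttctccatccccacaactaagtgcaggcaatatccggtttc
Irf8, chr8:120736108-120736357, plus strand: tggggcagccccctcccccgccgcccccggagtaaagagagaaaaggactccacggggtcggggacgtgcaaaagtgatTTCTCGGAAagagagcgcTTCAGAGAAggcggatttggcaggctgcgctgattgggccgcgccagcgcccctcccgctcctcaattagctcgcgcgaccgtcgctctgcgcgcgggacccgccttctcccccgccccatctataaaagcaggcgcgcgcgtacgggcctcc
H2-Aa, chr17:34287824-34288073, minus strand: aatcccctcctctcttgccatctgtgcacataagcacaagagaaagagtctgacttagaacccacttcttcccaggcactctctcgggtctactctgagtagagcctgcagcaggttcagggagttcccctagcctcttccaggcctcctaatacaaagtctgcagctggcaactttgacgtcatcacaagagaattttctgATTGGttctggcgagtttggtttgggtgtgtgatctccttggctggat

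In Igtp and Tgtp2 the GAS match starts 11 bases before the ISRE match, and the same spacing of 11 bases was found in Irgm2 and Tgtp1. In Igtp the GAS match starts at -45 and the ISRE match at -34, counted with the first transcribed base as 0. Irgm1 holds 2 ISRE matches, at -30 and -24, that share bases, and no GAS match in this window. Gbp7 holds 2 GAS matches, at -106 and -87, and an ISRE match at -53. Irf8 holds 2 GAS matches, at -171 and -153, and no ISRE match. These matches describe letters in the windows and no binding was measured.

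Library totals ran from 2945638 to 35787148 counted reads (median 10248080), and the ds2 libraries were the shallowest, at 2945638 to 5408375. In 4 pairs, 2 libraries of 1 group differed by close to sampling noise (chi-square per degree of freedom 2.42 to 2.75, against at least 68.4 in the other 86 pairs). The reads of each such pair were added up and taken as 1 sample. The 41 samples were 5 in each WT, N and Teff group and 4 in each heterozygous group. The joined pairs were replicates 3 and 4 in both heterozygous lymph node groups and ds1 and 4 in both heterozygous tumour groups. A joined sample is called replicate 4. Replicates are named 2, 3, ds1, ds2 and 4, and values are given in that order. The submitters' protocol notes single and double sorting without saying which library had which. Tregs held Foxp3, the defining factor of the lineage, at group means of 12.9 to 28.0 CPM (counts scaled to a fixed library size), and effector T cells at 0.383 CPM. Several ds1 samples stood apart from the rest of their group in the members, so counts are also given without the ds1 samples, a choice made after seeing the data. Counts of Nrp1 over the whole gene do not test the deletion.

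Levels per kilobase of exon, averaged over the 9 groups, were compared between genes. B2m, the light chain of class I, stood highest at 6175 CPM per kb, followed by the class I heavy chains H2-K1 at 2228 and H2-D1 at 1208 CPM per kb. Psmb8, a catalytic subunit of the immunoproteasome, reached 459 CPM per kb and Cd74, the invariant chain of class II, 271 CPM per kb. Among the GTPases Igtp was highest, at 239 CPM per kb, then Gbp8 at 102 and Gbp7 at 95.7 CPM per kb. The lowest were H2-DMb1, a class II peptide exchanger, at 4.24 CPM per kb, Gbp5 at 3.28 and Ciita, the master activator of class II genes, at 0.493 CPM per kb. H2-DMb1 had no read in 5 samples, Ciita, H2-Aa, H2-Ab1 and H2-Eb1 had none in 2 samples each, and Gbp5 had none in 1 sample. The other 29 genes were counted in all 41 samples.

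The mean log2 CPM over the 14 GTPases was higher in every tumour Treg group than in every lymph node Treg group. It was 6.83 ± 0.54 (SD, n = 5) in WT lymph node Tregs, 6.80 ± 0.44 (n = 5) in N, 6.70 ± 0.61 (n = 4) in HetNrp1def and 6.78 ± 0.67 (n = 4) in HetWT. In the tumour it was 7.88 ± 0.45 (n = 5) in WT, 7.57 ± 0.91 (n = 5) in N, 7.92 ± 0.43 (n = 4) in HetNrp1def and 7.78 ± 0.55 (n = 4) in HetWT Tregs. Effector T cells of the tumour had the lowest mean, 6.24 ± 0.74 (n = 5). The 4 tumour means lie within 1 SD of each other, and so do the 4 lymph node means. Class I means spanned a narrower range, from 9.39 to 9.61 in lymph node Tregs, 9.69 to 9.91 in tumour Tregs and 9.30 ± 0.31 in effector T cells. Class II means were lower in the tumour in all 4 Treg sets, with SDs of up to 2.74, so that neighbours in the order do not differ beyond their spread. The mean of the 4 regulators was 5.79 to 6.50 in lymph node Tregs, 7.18 to 7.44 in tumour Tregs and 5.28 ± 0.17 in effector T cells.

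**Figure D1:**
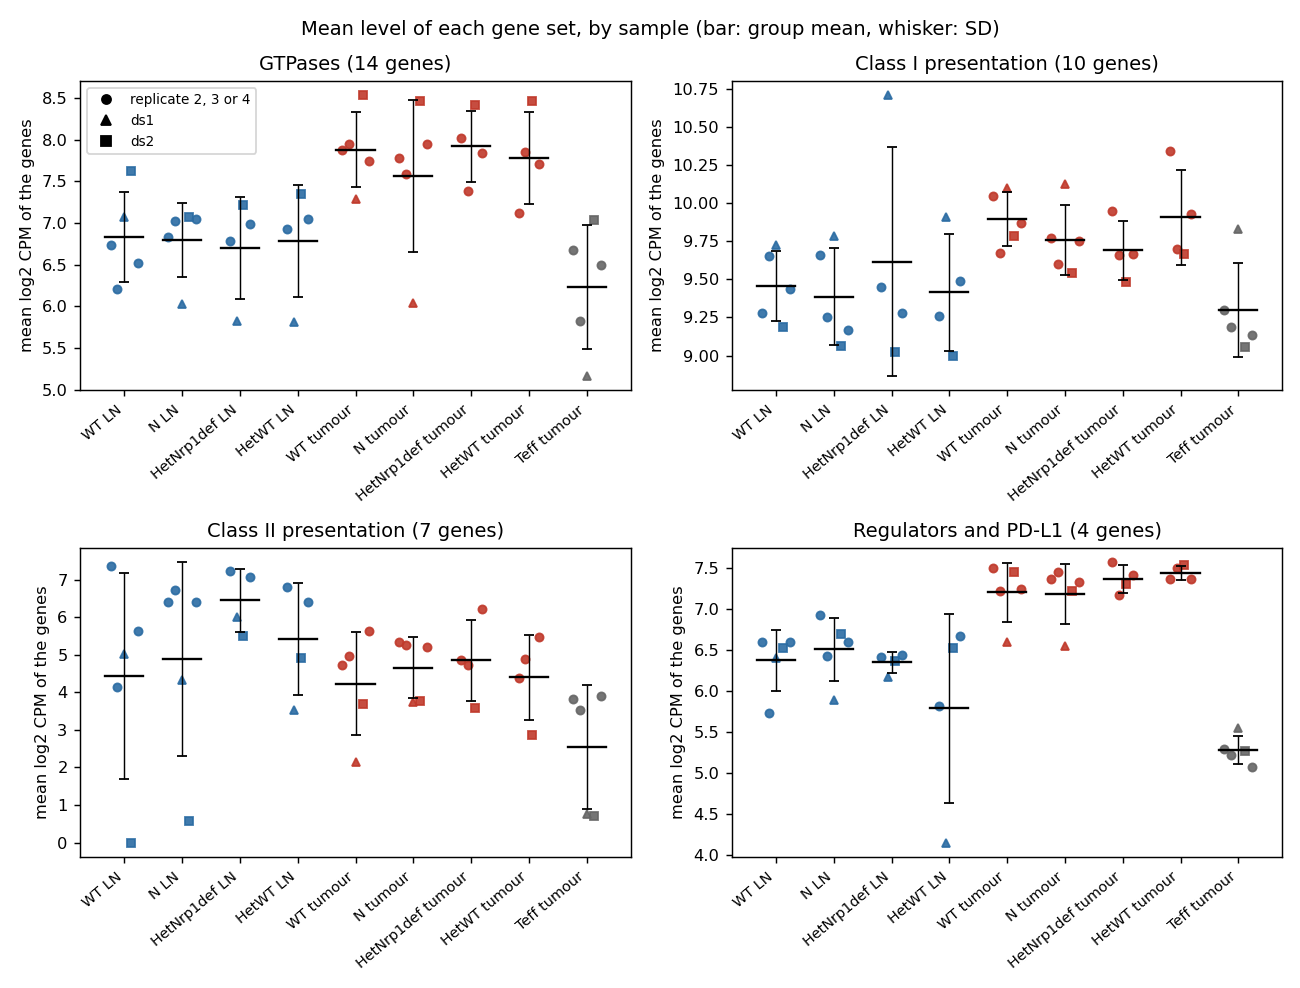
Mean log2 CPM of each gene set in each of the 41 samples, by group (triangles ds1, squares ds2, bar and whisker the group mean and SD). GTPase means of tumour Tregs lie mostly above those of lymph node Tregs, with 1 tumour sample, N ds1, at 6.04, and the class II means of lymph node Tregs range from -0.01 to 7.36.

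To ask how Tregs of the tumour differ from Tregs of the lymph node, the tissue difference was averaged over the 4 Treg sets in 1 edgeR fit. In that average 10 of the 35 genes were higher in the tumour and 0 were lower, where 11.2% of all genes tested passed in either direction, 5.84% higher and 5.37% lower. The 10 were 6 of the 14 GTPases (Iigp1, Gbp6, Gbp7, Igtp, Gbp4 and Irgm1), 3 of the 10 class I genes (H2-D1, Tap1 and Psmb9) and 1 of the 4 regulators (Irf8). Of the 35 genes, 20 had an unadjusted p below 0.05, against 22.9% of all genes. The median log2 fold change was 0.84 for the GTPases, 0.27 for class I, -1.40 for class II and 0.51 for the regulators, beside -0.08 for all genes tested. All 14 GTPases had a log2 fold change above 0, also under both other scalings and in DESeq2, with 12 of 14 above 0 in limma on the authors' log2 values and 13 of 14 without the ds2 libraries. Without the ds1 samples 21 of the 35 genes passed, 20 higher and 1 (Cd74) lower, where 17.1% of all genes passed. Replicate ds1 of both heterozygous tumour groups is part of a joined sample and stays in that count. In bulk RNA a change in the share of cells that make a transcript and a change in RNA per cell cannot be told apart.

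**Figure D2:**
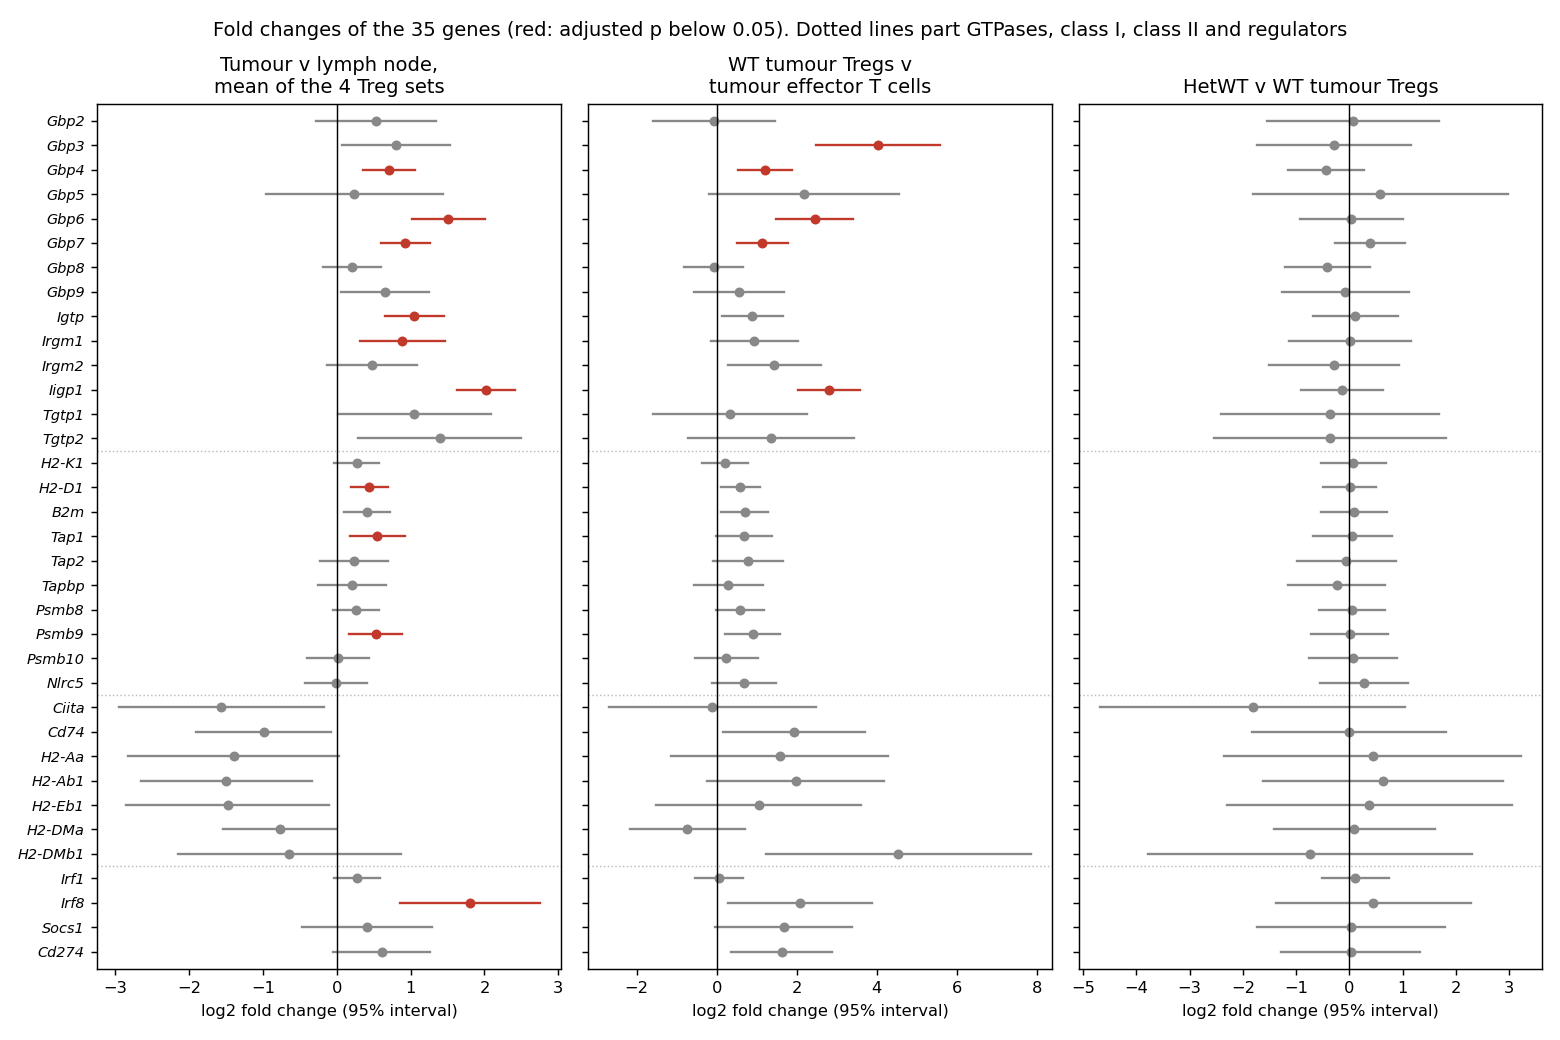
Log2 fold change with its 95% interval for each of the 35 genes in 3 comparisons: tumour against lymph node over the 4 Treg sets, WT tumour Tregs against tumour effector T cells, and HetWT against WT tumour Tregs, with genes past an adjusted p of 0.05 in red. The red points are 10 in the first panel, 5 in the second and 0 in the last.

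Iigp1, an immunity-related GTPase on chromosome 18, had the lowest adjusted p of the 35 between tissues. In WT lymph node Tregs it measured 133, 145, 273, 227 and 149.7 CPM, and in WT tumour Tregs 543, 678, 568, 1084 and 809 CPM. In N Tregs the lymph node samples measured 121, 95.9, 172, 147 and 104 CPM and the tumour samples 471, 432, 715, 695 and 527 CPM. Tumour samples are the higher in each set with no overlap. HetNrp1def Tregs gave 72.3, 340.2, 159 and 88.1 CPM in the lymph node (replicates 2, ds1, ds2 and 4) and 628, 379, 615 and 449 CPM in the tumour (replicates 2, 3, ds2 and 4). HetWT Tregs gave 102, 174, 129.7 and 142 CPM in the lymph node and 643, 553, 837 and 638 CPM in the tumour, in the same order of replicates. All 18 tumour samples lie above all 18 lymph node samples, the highest of which is HetNrp1def ds1. Iigp1 was the only one of the 35 genes with this separation, where 0.28% of all genes had it in that direction. The edgeR log2 fold change was 2.02 (SE 0.19, adjusted p = 2.03e-11), or 4.05-fold. Over 16 pairs of samples of the same set and number, the tumour sample was higher in 16 of 16, by 1.06 to 3.12 log2 units.

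Gbp6, a guanylate-binding protein gene at chr5:105270702-105293698 (GRCm38, minus strand), came next. It measured 82.2, 118, 136, 217 and 64.5 CPM in WT lymph node Tregs and 365, 322, 426, 452 and 266 CPM in WT tumour Tregs. In N Tregs the values were 145, 166, 268, 95.1 and 112 CPM in the lymph node and 340.3, 233, 342, 465 and 229.8 CPM in the tumour. WT samples do not overlap between tissues, whereas N ds1 of the lymph node lies above N replicates 3 and 4 of the tumour. HetNrp1def lymph node Tregs had 147, 4.51, 157 and 132 CPM against 331, 256, 384 and 329 CPM in the tumour. HetWT lymph node Tregs had 101, 74.7, 116 and 119.6 CPM against 446, 296, 471 and 291 CPM. Both heterozygous sets are separated by tissue, and HetNrp1def ds1 of the lymph node is far below all others. Averaged over the sets Gbp6 was 2.85-fold higher in the tumour (log2 fold change 1.51, SE 0.24, adjusted p = 7.11e-06), and 14 of the 18 tumour samples lie above the highest lymph node sample.

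Gbp7, at chr3:142530342-142550149 on the plus strand, ranged over 259 to 626 CPM (median 359.7) in the 18 lymph node Treg samples and 359 to 1035 CPM (median 735) in the 18 tumour samples. In 15 of 18 tumour samples the value exceeds every lymph node sample, and the lowest tumour sample is WT ds1. Its log2 fold change was 0.93 (SE 0.16, adjusted p = 3.98e-05). Igtp, at chr11:58199556-58207591, ranged over 117 to 941 CPM (median 290.2) in the lymph node and 355 to 1039 CPM (median 632) in the tumour, with a log2 fold change of 1.05 (SE 0.20, adjusted p = 0.000126). The highest lymph node value of Igtp belongs to HetNrp1def ds1, and without that sample the highest is 477 CPM. Gbp4, at chr5:105115767-105139586, ranged over 111 to 790.0 CPM (median 344) and 342 to 824 CPM (median 646), with a log2 fold change of 0.71 (SE 0.18, adjusted p = 0.00406). Irgm1, which restrains the effector GTPases and lies at chr11:48861968-48871683, ranged over 9.01 to 768 CPM (median 182) and 180.1 to 699.8 CPM (median 360.1), with a log2 fold change of 0.89 (SE 0.28, adjusted p = 0.0321). In Gbp4 and Irgm1 the ranges overlap widely. Single ds1 samples of the lymph node reach 790.0 CPM for Gbp4 and 768 CPM for Irgm1, and another ds1 sample is at 9.01 CPM for Irgm1. Irgm1 did not pass in edgeR when any of the ds2 samples of WT, N or HetNrp1def tumours was left out (adjusted p of up to 0.0549). It did not pass without all ds2 libraries (adjusted p = 0.299) or when limma was run on the deposited log2 table (adjusted p = 0.160).

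**Figure D3:**
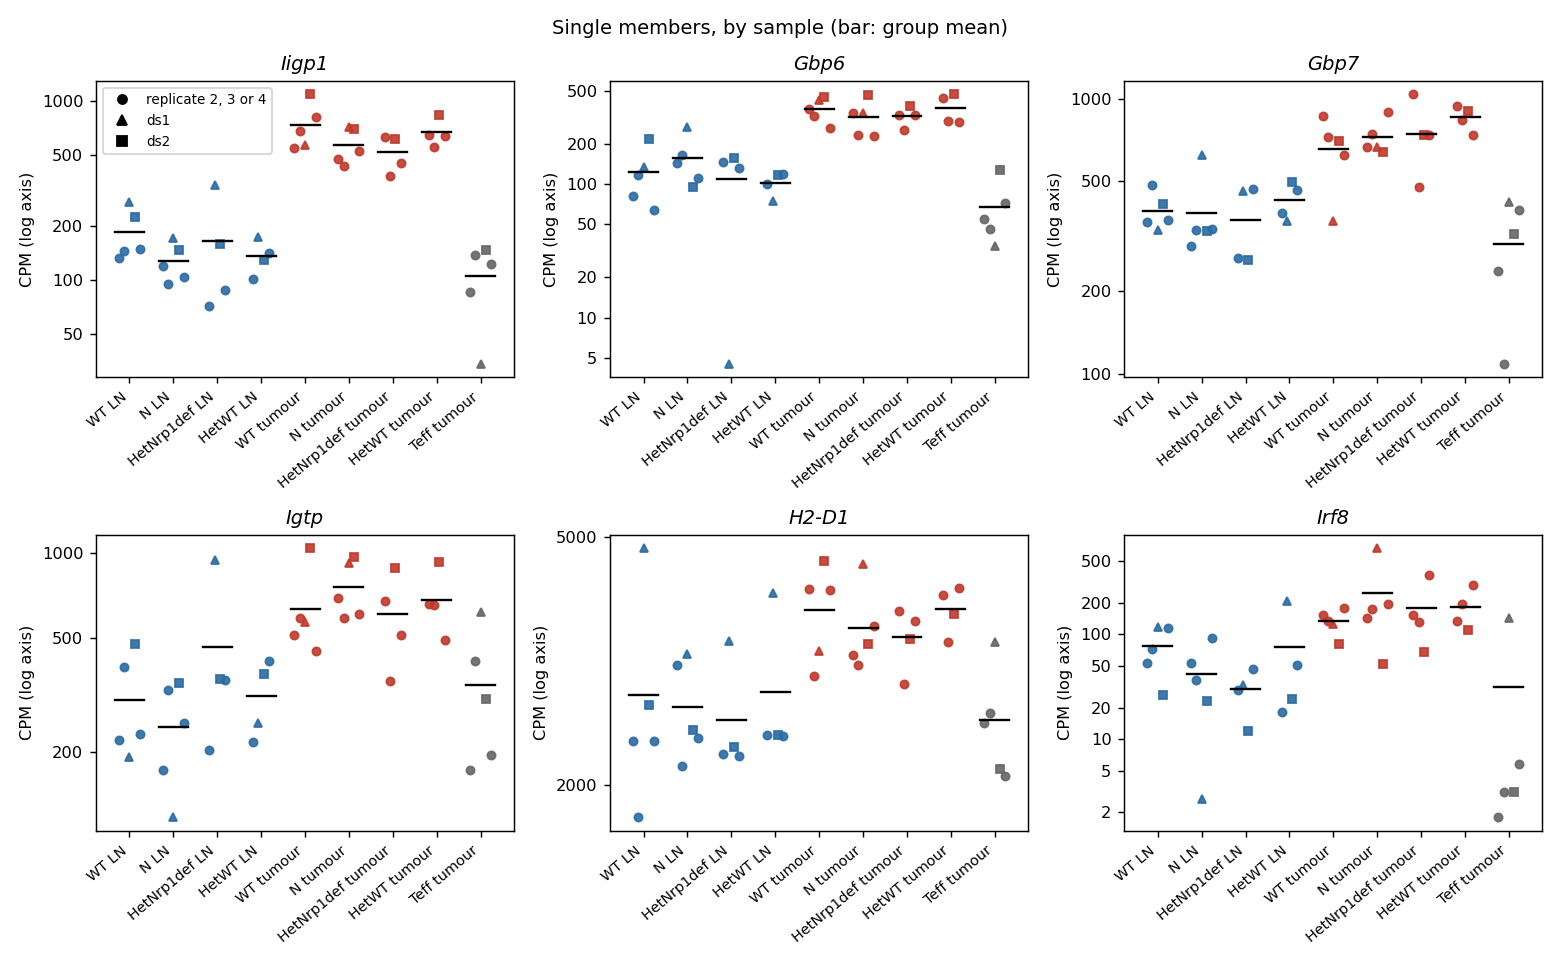
CPM on a log axis of 6 of the 35 genes in each sample, by group, with the group mean as a bar and ds1 and ds2 samples as triangles and squares. For Iigp1 all 18 tumour Treg samples lie above all 18 lymph node samples, and for H2-D1 the ds1 samples of the lymph node reach into the tumour range.

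The other 8 GTPases did not pass the test. Gbp3, at chr3:142560026-142573209, ranged over 12.9 to 429 CPM (median 94.9) in lymph node Tregs and 91.9 to 505 CPM (median 192) in tumour Tregs, with a log2 fold change of 0.80 (SE 0.36, adjusted p = 0.156). Single samples spread these ranges: N ds1 at 12.9 and HetNrp1def ds1 at 429 CPM lie far from the other lymph node samples. Tgtp1 and Tgtp2, T cell-specific GTPases, had log2 fold changes of 1.05 (SE 0.51, adjusted p = 0.203) and 1.39 (SE 0.54, adjusted p = 0.0981). Irgm2 measured 110.1 to 143 CPM in 3 of the HetNrp1def lymph node samples and 1279 CPM in ds1. The remaining values were 0.65 for Gbp9, 0.53 for Gbp2, 0.48 for Irgm2, 0.24 for Gbp5 and 0.20 for Gbp8 on the log2 scale. Gene models of Gbp4, Gbp8 and Gbp9 overlap on chromosome 5, and those of Igtp and Irgm2 overlap on chromosome 11. Together with the near-identical pair Tgtp1 and Tgtp2, the split of reads among these genes is uncertain.

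Of the 10 class I genes, B2m, H2-K1, H2-D1 and Psmb8 were at high level in all T cell groups. Tap2, at 34.5 CPM per kb, and Nlrc5, at 39.1, were the lowest. The log2 fold changes between tissues, averaged over the 4 sets, were at most 0.55. H2-D1, a class I heavy chain gene at chr17:35262730-35267499, measured 2351, 1775, 4799.8, 2691 and 2352 CPM in WT lymph node Tregs and 4134, 2997, 3281, 4579 and 4118 CPM in WT tumour Tregs. Over the 4 sets it ranged over 1775 to 4799.8 CPM (median 2399.9) in the lymph node and 2901 to 4579 CPM (median 3639) in the tumour. The 3 highest lymph node samples are ds1 samples, and the groups overlap. The tissue difference was 1.36-fold (log2 fold change 0.44, SE 0.12, adjusted p = 0.0135). Its 4 set values lay close together, at 0.45 in WT, 0.42 in N, 0.44 in HetNrp1def and 0.44 in HetWT Tregs, none of which passed alone. DESeq2, another count test, did not call H2-D1 (adjusted p = 0.124), nor did edgeR with RLE factors (adjusted p = 0.142).

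Tap1, the peptide pump subunit at chr17:34187553-34197225, ranged over 183 to 808 CPM (median 247) in the lymph node and 294 to 742 CPM (median 398) in the tumour, with a log2 fold change of 0.55 (SE 0.18, adjusted p = 0.0414). Psmb9, its neighbour at chr17:34181987-34187764 and an immunoproteasome subunit, ranged over 114 to 634 CPM (median 215) and 289 to 557 CPM (median 328), with 0.52 (SE 0.18, adjusted p = 0.0433). Both genes reach their highest value in 1 lymph node sample, HetNrp1def ds1. Each stayed called in 30 of the 36 fits that left out 1 sample, and neither was called by DESeq2, by edgeR with RLE factors or without the ds2 libraries. Limma on the authors' log2 values called Tap1 and did not call Psmb9 (adjusted p = 0.128). With RLE factors the adjusted p was 0.223 for Tap1 and 0.184 for Psmb9. The Tap1 and Psmb9 gene models overlap on opposite strands by 212 bases, and whether reads were counted by strand is not given in the labels. H2-K1, the class I gene with the highest mean log2 CPM, ranged over 3446 to 10034 CPM (median 5992) and 3955 to 10417 CPM (median 7346), with a log2 fold change of 0.27 (SE 0.15, adjusted p = 0.284). In all 9 groups its lowest sample is ds2. B2m had a log2 fold change of 0.41 (SE 0.15, adjusted p = 0.0753), and Psmb8 of 0.26 (SE 0.15, adjusted p = 0.323). Tap2 (0.23), the loading factor Tapbp (0.21), Psmb10 (0.02) and Nlrc5, the activator of class I genes (-0.01), showed no called difference.

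In edgeR 0 of the 7 class II genes passed in either direction, although all 7 had a log2 fold change below 0. Of the 7 genes, 5 had an unadjusted p below 0.05, against 22.9% of all genes. Other fits called some of them lower: DESeq2 called H2-Ab1 and Ciita, limma on the authors' log2 values called 5 (all but Ciita and H2-DMa), and the fit without ds2 called H2-Ab1. Cd74 measured 1507, 223, 280.3, 236 and 466 CPM in WT lymph node Tregs and 453, 350.0, 55.7, 465 and 352 CPM in WT tumour Tregs. In N Tregs it measured 973, 1058, 327, 196 and 1416 CPM in the lymph node and 419.9, 287, 59.1, 330.0 and 257 CPM in the tumour. The groups overlap, with the highest samples in the lymph node and ds1 the lowest in both tumours. Its log2 fold change was -0.99 (SE 0.45, adjusted p = 0.173), and it fell by 1.10 without the ds1 samples, where it passed. Ciita had the largest class II difference, -1.57 (SE 0.68, adjusted p = 0.142), at levels of 0 to 16.5 CPM in lymph node and 0 to 5.91 CPM in tumour Tregs. H2-Ab1 (-1.50, adjusted p = 0.0881), H2-Eb1 (-1.48, adjusted p = 0.173) and H2-Aa (-1.40, adjusted p = 0.231) encode class II chains. Without the ds1 and ds2 samples, which leaves 2 or 3 samples a group, H2-Eb1, H2-Aa, Cd74 and H2-Ab1 were called lower. Ciita, H2-DMa and H2-DMb1 were not called in that smaller fit. In the edgeR fit of all samples H2-DMa had -0.77 (adjusted p = 0.203) and H2-DMb1 -0.64 (adjusted p = 0.684).

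Markers of B cells, which make class II molecules, moved with these genes. In the tissue average 5.84% of all genes were higher in the tumour and 5.37% lower. Of 9 B cell markers tested, 7 were lower in the tumour, Ms4a1 by a log2 fold change of -8.93. Their summed level was 6.50 to 726 CPM in lymph node Tregs, 4.03 to 90.2 CPM in tumour Tregs and 6.58 to 53.1 CPM in effector T cells. Dendritic cell markers summed to 86.5 to 421 CPM in the lymph node and 149 to 866 CPM in the tumour, with 2 of 10 higher there. Macrophage markers summed to 4.32 to 221 CPM and 3.18 to 334 CPM, with 4 of 12 higher in the tumour. The WT lymph node sample with the highest B cell sum, replicate 2 at 726 CPM, has the highest class II mean of all samples, 7.36. WT lymph node ds2 has a B cell sum of 19.5 CPM and a class II mean of -0.01. WT lymph node ds1 has the lowest lymph node B cell sum, 6.50 CPM, with a class II mean of 5.03. The part of B cell RNA in the class II values was not tested.

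**Figure D4:**
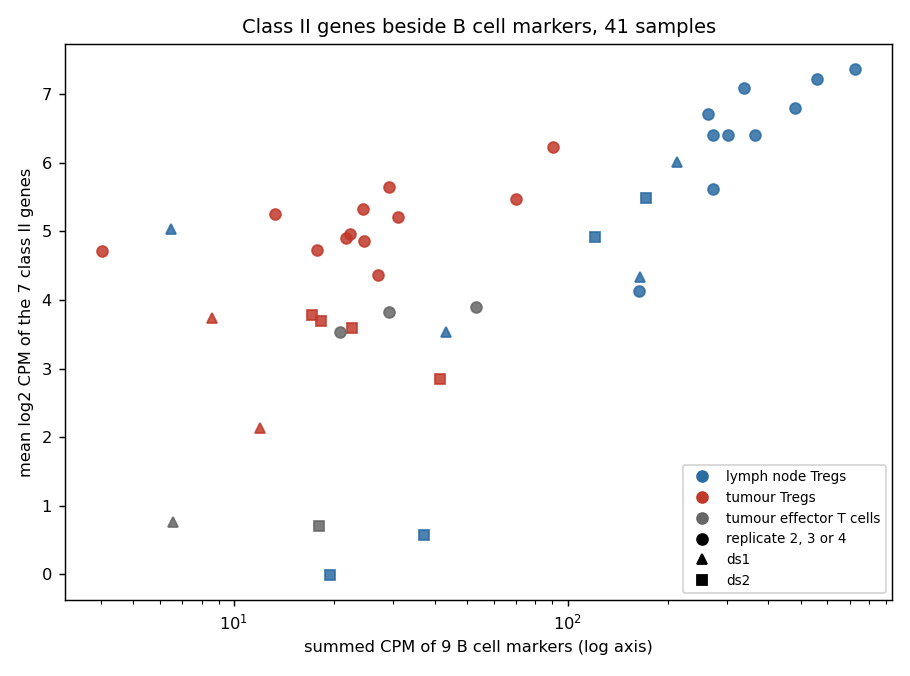
Mean log2 CPM of the 7 class II genes against the summed CPM of 9 B cell markers (log axis), 1 point per sample. The 10 lymph node samples with B cell sums of 213 CPM or more have class II means of 5.62 or more, and tumour Tregs keep means of 2.14 to 6.23 at sums of 4.03 to 90.2 CPM.

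Melanoma markers also differed by tissue, with 11 of 12 higher in the tumour and sums of 6.79 to 4103 CPM in tumour against 6.53 to 73.6 CPM in lymph node Tregs. The marker Nkg7, of cytotoxic cells, was higher in the tumour by 3.37 on the log2 scale, with the other 6 CD8 T and NK cell markers tested not called. The summed level of all 8 CD8 T and NK cell markers, Nkg7 among them, was 523 to 2542 CPM in tumour and 80.7 to 889 CPM in lymph node Tregs. The part of melanoma, myeloid and cytotoxic cell RNA in the GTPase and class I differences was not tested.

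Irf8, an interferon-induced transcription factor also made by myeloid and B cells (chr8:120736358-120756694), measured 53.7, 72.7, 119, 26.1 and 114 CPM in WT lymph node Tregs and 153, 133, 126, 80.4 and 179 CPM in WT tumour Tregs. N Tregs had 53.6, 36.4, 2.68, 23 and 91.3 CPM in the lymph node and 142, 175, 662, 52.2 and 196 CPM in the tumour. HetNrp1def Tregs had 29.3, 32.9, 12 and 47.0 CPM and 151, 131, 68.1 and 369 CPM. Tumour and lymph node samples do not overlap in HetNrp1def, and they do in WT and N. HetWT Tregs had 18.1, 206, 24.4 and 50.9 CPM in the lymph node, where ds1 is the highest, and 134, 194, 109.5 and 296 CPM in the tumour. HetWT samples overlap as well, through lymph node ds1. Over all sets the tumour sample was higher in all 16 same-number pairs. HetWT lymph node ds1 has no tumour sample of its number and is in none of these pairs. The log2 fold change over the sets was 1.81 (SE 0.47, adjusted p = 0.00725), or 3.50-fold. The myeloid and B cell marker sums given above went in different directions, and their part in Irf8 was not tested.

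Irf1, a transcription factor and the regulator with the highest mean log2 CPM, did not pass. It ranged over 164 to 553 CPM (median 319) in the lymph node and 294 to 515 CPM (median 393) in the tumour, with a log2 fold change of 0.27 (SE 0.15, adjusted p = 0.297). Cd274, which encodes the checkpoint ligand PD-L1, ranged over 1.15 to 609 CPM (median 101) and 97.3 to 335 CPM (median 203), with 0.61 (SE 0.32, adjusted p = 0.261). The lymph node extremes of Cd274 are both ds1 samples, HetWT at 1.15 CPM and HetNrp1def at 609 CPM. Without the ds1 samples Cd274 passed, at 1.07. Socs1, the feedback inhibitor of Jak kinases, had 0.41 (SE 0.43, adjusted p = 0.652).

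Within single Treg sets few of the 35 genes passed. In WT Tregs only Iigp1 did in edgeR (log2 fold change 1.99, SE 0.37, adjusted p = 0.000873), where 0.873% of all genes passed in either direction. In N Tregs Iigp1 (2.15, SE 0.37, adjusted p = 0.000344) and Igtp (1.63, SE 0.38, adjusted p = 0.0168) rose, where 0.791% passed, 0.566% of all genes in that direction. Igtp in N measured 173, 329, 117, 349 and 251 CPM in the lymph node and 691, 592, 924, 966 and 609.7 CPM in the tumour. All 5 tumour samples of N are above its 5 lymph node samples. Leaving out N lymph node replicate 2 or ds1 or N tumour ds2 ended that call for Igtp (adjusted p of up to 0.0761). In HetNrp1def Tregs Iigp1 passed (1.65, SE 0.41, adjusted p = 0.0319), where 0.654% of all genes did, and in HetWT Tregs Iigp1 passed (2.29, SE 0.41, adjusted p = 0.00187), where 0.239% did, 0.075% of all genes in the lower direction. The HetNrp1def call was lost without lymph node replicate 2 or 4 (adjusted p of up to 0.0599) and in DESeq2, which called Gbp6 there instead. Without the ds1 samples the counts were 6 of 35 in WT (2.48% of all genes), 4 in N (1.5%), 3 in HetNrp1def (1.26%) and 3 in HetWT Tregs (0.843%), so that calls increased across the table and not in the members alone. Leaving out WT lymph node ds2 gave 2 in WT Tregs, Iigp1 and Gbp6.

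Ranges without overlap between the tissues were more frequent. In WT Tregs, 5 of the 35 genes were higher in every tumour sample (Gbp4, Gbp6, Irgm2, Iigp1 and Psmb8), against 1.88% of all genes. In N Tregs it was 6 (Gbp7, Igtp, Irgm1, Iigp1, Tap1 and Psmb9), against 2.37%. In HetNrp1def Tregs it was 6 (Gbp6, Gbp7, Gbp9, Irgm1, Iigp1 and Irf8), against 4.32%. In HetWT Tregs it was 9, with Gbp2, Gbp4, Gbp6, Gbp7, Igtp, Iigp1, Psmb9, Irf1 and Cd274, against 2.56%, and Ciita was lower, against 2.11%. Iigp1 is the gene that all 4 lists hold.

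**Figure D5:**
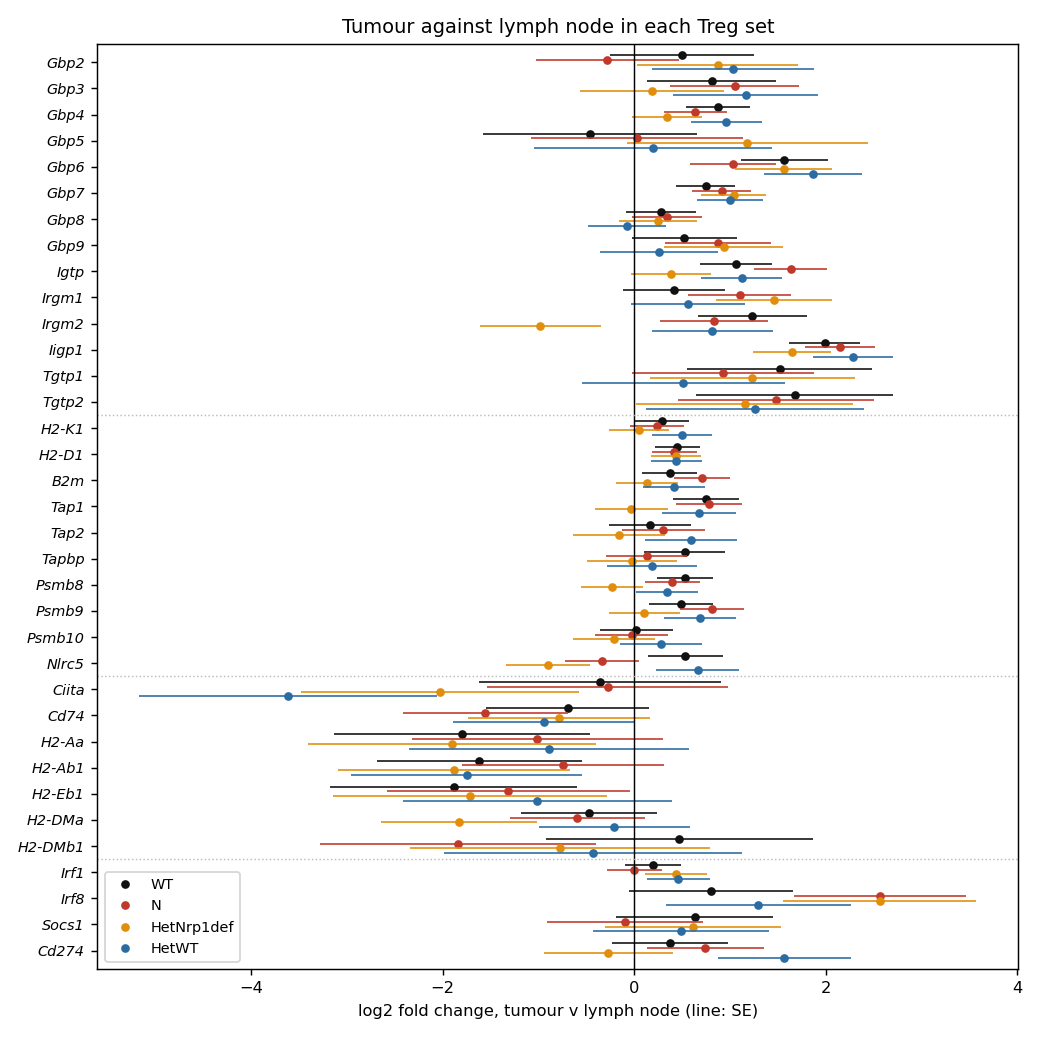
Log2 fold change, tumour against lymph node, of each of the 35 genes in each of the 4 Treg sets, with the SE as a line. Iigp1 lies between 1.65 and 2.29 in all 4 sets, and Irgm2 and Nlrc5 lie below 0 in HetNrp1def.

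WT tumour Tregs were next compared with effector T cells of the tumour. In edgeR 5 of the 35 genes, all of them GTPases, were higher in the Tregs and 0 were lower, where 5.71% of all genes passed in either direction, 4.1% of all genes as higher. Iigp1 in effector T cells measured 86.0, 138, 34.3, 148 and 123 CPM, beneath every tumour Treg sample. Its log2 fold change was 2.80 (SE 0.38, adjusted p = 2.90e-07), or 6.96-fold. Gbp3 measured 33.2, 0.0807, 0.648, 13.4 and 27.3 CPM in effector T cells and 176, 118, 505, 222 and 211 CPM in WT tumour Tregs. The groups do not overlap, and effector replicates 3 and ds1 are near 0. The Gbp3 difference was the largest of the 5, 4.04 (SE 0.76, adjusted p = 0.000234), or 16.4-fold. Gbp6 measured 54.8, 46.2, 34.5, 128 and 72.4 CPM in effector T cells, against 266 to 452 CPM in WT tumour Tregs, with 2.45 (SE 0.47, adjusted p = 0.00025).

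Gbp7 (1.14, SE 0.31, adjusted p = 0.0137) and Gbp4 (1.20, SE 0.33, adjusted p = 0.0178) were the other two. In effector T cells Gbp7 measured 237, 109, 419.8, 322 and 393 CPM and Gbp4 334, 215, 389, 415 and 240.3 CPM. For Gbp7, WT tumour ds1 lies below effector ds1 and 4, and for Gbp4 the groups do not overlap. Without effector replicate 3 both calls were lost and 3 of the 5 genes passed. Gbp4 was also lost without effector replicate 4, and Gbp7 without WT tumour replicate 2 (adjusted p of up to 0.0682 and 0.0723). Without the ds1 samples 14 of the 35 genes passed, all higher in Tregs, where 9.91% of all genes did. Gbp3, Gbp6, Iigp1 and Psmb9 were higher in all 18 tumour Treg samples of any genotype than in all 5 effector samples, against 2.27% of all genes. Melanoma markers were higher in WT tumour Tregs too, with 5 of 12 called, as were 2 of 10 dendritic cell markers. Of the 12 macrophage markers 0 passed in edgeR, 4 of them with an unadjusted p below 0.05, against 17.5% of all genes. Effector sums were 3.92 to 107 CPM for melanoma, 50.1 to 133 CPM for dendritic cell and 8.29 to 32.9 CPM for macrophage markers. In WT tumour Tregs they were 6.79 to 4103 CPM, 149 to 431 CPM and 3.18 to 155 CPM. Melanoma and macrophage sums overlap between these groups, and dendritic cell sums do not. The 8 CD8 T and NK cell markers, Nkg7 among them, summed to 523 to 1527 CPM in WT tumour Tregs and 50.6 to 173 CPM in effector T cells. Endothelial and fibroblast markers summed to 14.6 to 69.8 CPM and 81.3 to 248 CPM, and neither sum overlaps between the groups. The endothelial and fibroblast sum was the higher in effector T cells. What part RNA of these other cells has in the differences was not tested.

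No class I, class II or regulator gene passed in this comparison in edgeR (0 of 21). An unadjusted p below 0.05 was found for 7 of the 21, against 17.5% of all genes. DESeq2 called H2-DMb1, where 6.96% of all genes passed. Psmb9 had 0.90 (SE 0.33, adjusted p = 0.111), H2-D1 0.59 (SE 0.24, adjusted p = 0.148) and H2-K1 0.20 (SE 0.28, adjusted p = 0.829). All 10 class I genes had a log2 fold change above 0 (9 in limma on the authors' log2 values), with a median of 0.63 beside 0.07 for all genes. Irf8 measured 1.79, 3.15, 143, 3.15 and 5.84 CPM in effector T cells, 4 samples under 6 CPM and ds1 at 143 CPM. Its log2 fold change against WT tumour Tregs was 2.09 (SE 0.88, adjusted p = 0.187). Irf1 differed little (0.06, SE 0.29, adjusted p = 0.974), and effector ds1 had its highest value of all samples, 699 CPM. Cd74 measured 145, 206, 0.864, 6.86 and 79.2 CPM in effector T cells, with 1.93 (SE 0.87, adjusted p = 0.231). Ciita ranged from 0.161 to 6.02 CPM there, with -0.11.

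WT lymph node Tregs were also set against the same effector samples, which both comparisons share. Only Gbp3 passed in edgeR (3.23, SE 0.73, adjusted p = 0.00659), or 9.39-fold, where 1.79% of all genes did, 1.69% as higher and 0.102% as lower. It measured 86.7, 137, 235, 95.6 and 149 CPM in WT lymph node Tregs, so that effector T cells are lower than Tregs of either tissue. Iigp1 had 0.81 (SE 0.36, adjusted p = 0.396), Gbp6 0.88 (SE 0.45, adjusted p = 0.549) and Gbp7 0.40 (SE 0.30, adjusted p = 0.832). H2-Ab1 (3.58, SE 1.16, adjusted p = 0.139) and Cd74 (2.63, SE 0.90, adjusted p = 0.178) did not pass, and B cell marker sums of these lymph node samples run from 6.50 to 726 CPM. Of the 35 genes 9 had an unadjusted p below 0.05, against 9.58% of all genes. Without the ds2 libraries 0 passed. Leaving out effector ds1 or WT lymph node ds2 gave 2 of 35, with Irf8 added in the first case and H2-Ab1 in the second.

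To ask whether Nrp1 deficiency changes these genes, the sets were compared within each tissue. In edgeR 0 of the 35 genes passed in any of the 8 comparisons, and 0% of all 14668 genes did. A comparison of 2 groups finds few changes at these sample sizes. In counts simulated with the spread of this fit, WT tumour against lymph node Tregs recovered 1 of 100 genes changed 2-fold. Of 100 genes changed 4-fold it recovered 14. The genotype comparisons were not simulated. Counts of 0 thus do not show that the genes are unchanged. In the tumour none of the 35 had an unadjusted p below 0.05 in any of the 4 comparisons, and DESeq2 called 0. Of all genes, 2.56% fell under that threshold for N against WT, 2.32% for HetNrp1def against WT and 2.52% for HetWT against WT. For HetNrp1def against HetWT it was 1.98%, so that 0 of 35 lies near these shares. For Iigp1 the tumour groups averaged 736 ± 221 CPM (WT, n = 5), 568 ± 130 CPM (N, n = 5), 518 ± 123 CPM (HetNrp1def, n = 4) and 668 ± 120.2 CPM (HetWT, n = 4). The groups overlap. Its log2 difference from WT was -0.37 in N (95% interval -1.09 to 0.35), -0.51 in HetNrp1def (-1.28 to 0.26) and -0.14 in HetWT (-0.91 to 0.62). Between HetNrp1def and HetWT Tregs of the same kind of mouse it was -0.37 (-1.17 to 0.44). Gbp6 differed from WT by -0.19 in N, -0.17 in HetNrp1def and 0.04 in HetWT tumour Tregs, with 95% intervals that all span 0. The median over the 14 GTPases was -0.17 in N, -0.11 in HetNrp1def and -0.11 in HetWT, beside -0.08, -0.12 and -0.10 for all genes. The 3 comparisons with WT share the WT samples.

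In the lymph node the number with an unadjusted p below 0.05 was 1 of 35 for N against WT (Nlrc5), 4 for HetNrp1def against WT, 0 for HetWT against WT and 4 for HetNrp1def against HetWT. The share of all genes under the same threshold was 4.20%, 6.14%, 4.08% and 6.49%, so that 0 and 1 of 35 lie at or below it. The genes behind both HetNrp1def counts are Irgm2, Nlrc5, H2-DMa, Psmb8 and Cd274, and HetNrp1def ds1 is the highest lymph node sample for each of them. Irgm2 was 143, 1279, 123 and 110.1 CPM in HetNrp1def lymph node Tregs and 111, 125, 23.6, 174 and 69.6 CPM in WT. Nlrc5 was 258, 1398, 242 and 378 CPM in HetNrp1def and 205, 167, 281, 261 and 205 CPM in WT. Apart from ds1 the HetNrp1def samples overlap WT for Irgm2. DESeq2 called Irgm2 and Nlrc5 in HetNrp1def against WT and Irgm2 in HetNrp1def against HetWT. The shares of all genes that DESeq2 called there are not given, so these calls cannot be set against them.

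The difference between sets in the tissue effect was tested as well. The edgeR interaction passed for 0 of the 35 genes in N, HetNrp1def or HetWT against WT. As in the genotype comparisons, 0 calls do not show that the tissue effects are equal. Unadjusted p-values below 0.05 numbered 0, 2 and 0 of 35, against 3.10%, 4.19% and 3.87% of all genes, and DESeq2 called 0. For Iigp1 the difference of the tissue effect from WT was 0.16 in N, -0.34 in HetNrp1def and 0.30 in HetWT. The 2 genes in HetNrp1def were Irgm2 (-2.22) and Nlrc5 (-1.44), the genes high in its lymph node ds1 sample.

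The rest of the pathway was read from lists of further genes, in the average tissue difference over the 4 sets. There 5.84% of all genes were higher in the tumour and 5.37% lower. Of 12 receptor and signalling genes 4 were higher in the tumour and 1 lower. Ifngr1, the ligand-binding receptor chain, rose by 2.89 on the log2 scale (adjusted p = 3.53e-15), and Ifngr2, the signalling chain, fell by 2.52 (adjusted p = 0.000165). Group means of Ifngr1 were 131 to 191 CPM in lymph node and 1082 to 1194 CPM in tumour Tregs, and those of Ifngr2 46.6 to 65.3 and 5.02 to 16.0 CPM. The 2 chains thus went in opposite directions, and effector T cells held 94.6 CPM of Ifngr1 and 82.8 CPM of Ifngr2. Stat3 (1.36) and Ifng itself (3.71) were higher.

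Of 8 other interferon-inducible GTPase genes 4 were higher in the tumour: Gm12250 (1.38), F830016B08Rik (3.15), Gm5431 (3.62) and Gm4951 (2.34). Of 14 other class I genes tested H2-T23 was higher (0.44) and H2-M2 lower (-4.51). Of 11 peptide-loading and proteasome genes 0 passed in edgeR, 0 of them with an unadjusted p below 0.05, against 22.9% of all genes. Of 11 other class II genes 5 were lower, led by H2-Ob (-3.23), H2-Eb2 (-6.76), H2-Oa (-2.07) and H2-DMb2 (-3.26). H2-Ob and H2-Oa form the class II modulator that B cells carry. The part of B cell RNA in their tissue differences was not tested. Of 23 genes known as type I interferon targets 18 were higher, led by Ifi27l2a (1.43), Ifit3 (2.20), Rtp4 (1.61) and Zbp1 (1.80). Their median log2 fold change was 1.61, against 0.84 for the 14 GTPases, and the 2 lists were not tested against each other.

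Against effector T cells WT tumour Tregs were higher in Ifngr1 (3.63) and in 3 of the 8 other GTPase genes (Gm4951, Gm12250 and F830016B08Rik), with H2-Ob lower (-3.44). B cell marker sums were 11.9 to 29.3 CPM in WT tumour Tregs and 6.58 to 53.1 CPM in effector T cells. Of the type I targets 6 of 23 were higher. In this comparison 4.1% of all genes were higher and 1.61% lower. In WT lymph node Tregs against effector T cells only Ifi27l2a of all 6 lists passed, where 1.79% of all genes did.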

How the data were processed

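Reads were aligned with STAR to mm10 and counted with featureCounts, per the submitters' processing notes, with versions and the strand setting not given in the sources used here. The authors deposited raw counts per gene for 45 libraries and a table of log2 expression values made with limma, per the same notes. No row without a gene name was found (0), and 0 further columns of per-sample values were left out. Near-identical library pairs (chi-square per degree of freedom under 5, over genes with a pair count of at least 10) were summed. The test on counts was that of edgeR 4.0.16 under R 4.3.3 (with TMM factors, filterByExpr, robust quasi-likelihood fit over all 9 groups, 18 contrasts, Benjamini-Hochberg adjustment over 14668 genes, threshold 0.05, prior count 2). CPM values are TMM-scaled and intervals are 95%. DESeq2 1.42.0, limma 3.58.1 on the authors' log2 values (10832 genes), other scalings, no low-count filter, a replicate block and leaving samples out were alternatives, and the scripts were tested on simulated data. Gene positions are from GENCODE release M21 and promoters from RefSeq.

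The members and lists were chosen with earlier results of these data known. Values per sample are given for members that passed in at least 1 comparison and, in each set, for the member with the highest mean log2 CPM and the one with the largest tissue difference. Irgm2 and Nlrc5 were added after their values were seen. Of other lists at most 4 genes per comparison are named, lowest adjusted p first. Some genes of these lists are not reported here. Replicate numbers recur across groups, but the labels do not say that a number marks a shared mouse or day. Samples of 1 number deviated together (every r over 0.1) only in the lymph node comparisons of HetNrp1def with WT (r 0.117 to 0.463), HetWT with WT (0.117 to 0.463) and HetNrp1def with HetWT (0.143 to 0.460), with 4 pairs each.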

Additional observations from a re-analysis of the deposited data

Results flagged for a closer look

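The 15 genes with values per sample and the 4 set means were screened in each of the 9 groups. In 23 of these 171 groups of values (4 or 5 samples each) the highest or lowest sample stood apart from the rest by Dixon's test at 95%. For normal values chance marks about 1 in 20 groups. Single genes were screened in CPM without a log, and the groups of values share samples, so that rate need not hold here. The sample that stood apart was the highest in 16 of the 23. Of the 23 values 19 came from 6 ds1 samples, 1 from a ds2 sample and 3 from 2 samples of another name. What sets the ds1 samples apart was not tested.

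HetNrp1def lymph node ds1 stood apart in 6 of the 15 genes. It had 790.0 CPM of Gbp4 (others 312 to 383), 429 CPM of Gbp3 (56.0 to 82.3), 3404 CPM of H2-D1 (2229 to 2299), 808 CPM of Tap1 (183 to 257) and 634 CPM of Psmb9 (161 to 220.0), and in the other direction 4.51 CPM of Gbp6 (132 to 157). Gbp4 and Gbp6, neighbouring GTPase genes, thus lay at opposite ends in 1 sample. Outside the 15 genes, the same sample was highest in its group for Irgm2, with 1279 CPM (others 110.1 to 143), Nlrc5, with 1398 CPM (242 to 378), H2-DMa, with 618 CPM (78.7 to 121), Psmb8, with 3788 CPM (1145 to 1403), Cd274, with 609 CPM (74.2 to 133), and Psmb10, with 835 CPM (153 to 336). HetWT lymph node ds1 had 536 CPM of Irgm1 (174 to 187) and 4072 CPM of H2-D1 (2397 to 2407).

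N lymph node ds1 had a GTPase mean of 6.03 log2 CPM (others 6.83 to 7.07), with 12.9 CPM of Gbp3 (86.8 to 107) and 114 CPM of Psmb9 (194 to 222), but 672 CPM of Gbp4 (267 to 365) and 626 CPM of Gbp7 (292 to 337). N tumour ds1 had a regulator mean of 6.54 log2 CPM (7.22 to 7.45) with 662 CPM of Irf8 (52.2 to 196).

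WT tumour ds1 had 557 CPM of Psmb9 (others 299.8 to 348), 505 CPM of Gbp3 (118 to 222) and 55.7 CPM of Cd74 (350.0 to 465), and WT tumour ds2 had 1039 CPM of Igtp (452 to 592). Effector ds1 had 143 CPM of Irf8 (1.79 to 5.84). WT lymph node replicate 2 was high in class II genes, with 1507 CPM of Cd74 (223 to 466) and 13.7 CPM of Ciita (0 to 1.003), beside the highest B cell marker sum, 726 CPM. WT lymph node replicate 3 had a regulator mean of 5.73 log2 CPM (6.40 to 6.60).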

How the results depend on the processing

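Of the 35 genes, 10 passed in the mean tissue comparison (11.2% of all genes), 18 with the replicate block (16 higher, 2 lower; 13.8%), 21 without the ds1 samples (17.1%), 20 without ds1 and ds2 (16 higher, 4 lower; 12.8%), 7 with RLE factors (11.3%), which lost H2-D1, Tap1 and Psmb9, 10 without ds2 (9 higher, 1 lower; 6.69%), which lost Irgm1, Tap1 and Psmb9, 13 in limma (8 higher, 5 lower; 9.44%), which lost Irgm1, Psmb9 and Irf8, 10 in DESeq2 (8 higher, 2 lower; 9.86%), and 7 to 15 when 1 sample was left out. Iigp1, Gbp4, Gbp6, Gbp7 and Igtp passed there in all 10 alternatives and all 36 such omissions. Shares of all genes called in the same fit are given in brackets. In WT Tregs the count of 1 (0.873%) became 2 in DESeq2 (2.13%), 2 with the 45 libraries as deposited (1.36%) and 3 with the block (2.6%). It became 0 in limma on the authors' log2 values (0.0646%), 6 without ds1 (2.48%), 8 without ds1 and ds2 (2.45%), and 1 to 2 with a sample left out. In N Tregs the count of 2 (0.791%) became 3 with the block (2.13%), 4 without ds1 (1.5%), 3 without both (1.22%) and 1 to 2 with a sample left out. In HetNrp1def Tregs the count of 1 (0.654%) became 0 with edgeR's RLE factors (1.21%), 2 with 45 libraries (2.02%) and 3 with the block (1.3%). It became 0 in limma (0.0554%), 0 without ds2 (0.259%), 3 without ds1 (1.26%), 2 without both (0.9%), and 0 to 1 with a sample left out. In HetWT Tregs the count of 1 (0.239%) became 2 in DESeq2 (1.23%), 2 with 45 libraries (1.04%) and 3 with the block (0.634%). It became 0 in limma (0.166%), 3 without ds1 (0.843%), 3 without both (0.744%), and 1 with any sample left out. Against effector T cells, 5 in WT tumour Tregs (5.71%) became 10 without TMM (5.73%), 11 with the block (8.75%) and 1 in limma (0.535%). The count became 14 without ds1 (9.91%), 14 without both (8.4%) and 3 to 6 with a sample left out. In WT lymph node Tregs 1 (1.79%) became 4 in DESeq2 (2.61%), 3 with the block (2.25%) and 2 in limma (2.85%). The count became 0 without ds2 (0.831%), 3 without ds1 (3.06%), 6 without both (2.52%) and 1 to 2 with a sample left out. In lymph nodes HetNrp1def against WT gave 2 in DESeq2 and against HetWT 1, with the shares of all genes not given for these. Every other genotype count was 0 in all alternatives. The block changed no genotype count, and it raised the tissue counts and the counts against effector T cells. In those comparisons ds1 and ds2 pairs deviated together, but not every pair of samples of 1 number did. Gbp3 reversed over the 4 sets in limma, with the authors' log2 values giving -0.060 (adjusted p = 0.959). Omitting ds1 or ds2 also lowers the number of samples. Otherwise the cause was not tested. The median of all genes shifted by -0.71 to 0.31 over the 18 comparisons in DESeq2, -0.28 to 0.18 with RLE factors and -0.05 to 0.16 without TMM. Medians and shares of DESeq2 are over 22864 genes, without the low-count filter, against 14668 in the main fit. The DESeq2 shift thus also reflects a different set of genes. For Ciita, H2-DMb1 and Gbp5, with 0 reads in some samples, a difference may not be detectable at these depths, and intervals cover only the spread between these samples.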

Other observations

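In all 9 groups the highest GTPase mean is that of ds2, at 7.07 to 7.62 log2 CPM in the 4 lymph node Treg groups, 8.42 to 8.53 in the 4 tumour Treg groups and 7.03 in effector T cells.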
